A study of Homo sapiens with 4 samples.

Results

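The genes described here encode the proteins of the cytosolic ribosome. They were chosen by symbol alone, as protein-coding genes outside the Y chromosome named RPL or RPS with a number and an optional A or X, together with RPLP0, RPLP1, RPLP2 and RPSA. This gave 77 of 19962 protein-coding genes, 31 of the small subunit and 46 of the large subunit. The rule itself uses no measured value. Chromatin accessibility had been profiled by ATAC-seq (Omni protocol), in which a transposase cuts open DNA, in HepG2, a human hepatocellular carcinoma line. Untreated cells, called control, gave 2 libraries, and cells kept for 48 h with 5 µM tazemetostat gave another 2. Every library was made from 50000 cells. Tazemetostat blocks EZH2, which puts the silencing methyl mark of polycomb on histone H3. The labels do not say whether the control cells received the solvent DMSO, and the protocol names a DNase pretreatment only for tazemetostat-treated cells.

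Ribosomal protein genes are transcribed in every growing cell and serve as an example of constitutive promoters. Their transcripts typically start with a C inside a run of pyrimidines, the 5′ terminal oligopyrimidine or TOP element, through which mTOR signaling sets their translation. Their proteins are needed in equal numbers, one of each per ribosome apart from the acidic stalk proteins, so that the genes have to be expressed together although they are scattered over the genome. Polycomb methylation is known from silent developmental genes and not from promoters of this kind.

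RefSeq promoters (GRCh38.p14, from 250 bases before to 50 after the start) were matched for 62 of the 77 genes, and 60 of them began at the start of the MANE Select transcript, the reference transcript agreed between annotations. The stretches from 40 bases before the start to base 20 of the transcript are shown for 8 genes: RPS6 and RPS13, which had the largest changes of tag count, RPL26 and RPS10, which had the smallest, RPS18 and RPS4X, whose peaks were called only under tazemetostat, and RPL12 and RPL19, which had no peak. Capitals mark the longest run of C and T between 5 bases before the start and base 20 of the transcript. The run is counted within this stretch only, and at RPS10 and RPL19 it continues upstream of it.
RPS6 (chr9:19380217-19380276, minus strand): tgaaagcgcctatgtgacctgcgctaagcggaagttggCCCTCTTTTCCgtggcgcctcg
RPS13 (chr11:17077648-17077707, minus strand): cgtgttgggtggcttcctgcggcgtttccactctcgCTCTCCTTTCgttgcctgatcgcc
RPL26 (chr17:8383174-8383233, minus strand): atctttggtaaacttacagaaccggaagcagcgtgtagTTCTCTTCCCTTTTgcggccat
RPS10 (chr6:34426050-34426109, minus strand): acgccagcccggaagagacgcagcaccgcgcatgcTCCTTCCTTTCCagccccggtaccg
RPS18 (chr6:33272035-33272094, plus strand): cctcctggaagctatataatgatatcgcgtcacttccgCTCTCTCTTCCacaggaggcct
RPS4X (chrX:72277229-72277288, minus strand): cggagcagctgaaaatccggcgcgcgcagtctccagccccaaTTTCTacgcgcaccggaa
RPL12 (chr9:127451387-127451446, minus strand): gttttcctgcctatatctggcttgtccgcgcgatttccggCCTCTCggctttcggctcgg
RPL19 (chr17:39200243-39200302, plus strand): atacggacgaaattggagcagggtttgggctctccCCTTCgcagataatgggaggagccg

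The pyrimidine run was the feature the promoters shared. A run of at least 5 bases lay at all 62 starts, against 42.7% of 15315 protein-coding promoters, and a run of at least 8 bases at 52 of 62 (83.9%) against 9.68%. A C followed by at least 4 pyrimidines lay between 5 bases before the start and base 10 of the transcript at 53 of 62 (85.5%) against 22.2%. The run was also present where no peak was called: all 7 promoters without a peak at the MANE start and with a RefSeq sequence held at least 5 pyrimidines, and 4 of the 7 held at least 8. RPL19 was counted with 5, although its run continues upstream of the counted stretch. RPS6 and RPL26, at opposite ends of the range of change, have runs of 11 and 14 bases. Short motifs were searched on both strands over the 300 bases. CCGGAAG, the core of ETS factor sites, was found in 21 of 62 promoters (33.9%) against 14.7% of all, and GGGCGG, the core of SP factor sites, in 35 (56.5%) against 61.8%. The TATA box letters TATAAA were found in 5 (8.06%, all promoters 9.42%) and AAGATGGC, a YY1 motif, in 6 (9.68%, all promoters 4.16%). Median GC content was 59.7% against 63.7%. A match of letters is a description and not an occupied site.

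Each value below is a normalized tag count, the sequencing tags in the called peaks that overlapped 1 kb on either side of the gene 5′ end, per 10 M mapped tags of the library. A promoter without a called peak has no value, which is not a value of zero. Mapped tags ranged from 17191428 to 26564400 per library. The libraries were not alike in the signal in peaks: 4.32% and 5.69% of tags lay in peaks in controls 1 and 2, and 11.5% and 9.81% in tazemetostat 1 and 2. Fragment length was set to 200 bp in both controls and to 144 bp in both tazemetostat libraries, per the headers. This setting, like the signal in peaks, cannot be told apart from treatment. Of 12 hepatocyte marker genes, 6 had a promoter peak in each control and 8 in each tazemetostat library, with summed tag counts of 189, 258, 498 and 353 in the same order. ALB, AFP and TTR were among the markers without a peak in either control. ALB had a peak in both tazemetostat libraries, AFP in tazemetostat 1 only and TTR in neither. Of the leukocyte markers, CD68 had a peak in all 4 libraries (18.0, 50.8, 91.7 and 70.4), with a log2 change of 1.37 ± 0.40 (SE, limma adjusted p = 0.0260), while PTPRC and CD3E had none in any. Of 4 fibroblast markers, COL1A2 had a peak in tazemetostat 1 alone (6.55), and none of 4 endothelial markers had one in any library. The part of these marker values in the results was not tested.

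To see whether these promoters were open in every library, peaks were counted at each gene. Ribosomal protein promoters were called more often than promoters at large, but far from always. A peak was present at 45 of 77 genes in control 1, 51 in control 2, 65 in tazemetostat 1 and 63 in tazemetostat 2. The shares were 58.4, 66.2, 84.4 and 81.8%, against 35.0, 41.2, 52.1 and 49.1% of all protein-coding genes. Peaks in all 4 libraries were found at 40 genes (51.9%), where 30.8% of all protein-coding genes had them. Another 12 genes (15.6%) had peaks in both tazemetostat libraries and 1 control, against 9.80% of all genes. Peaks in both tazemetostat libraries and neither control were found at 10 genes (13.0%), against 5.38% of all genes. No gene had peaks in both controls and neither tazemetostat library, a combination found at 28 genes in all. There was no peak in any library at 10 genes (13.0%), against 43.3% of all genes. With 2 libraries per group no test of these calls was possible for a single gene, and the share of tags in peaks moved in the same direction. Its part in the calls was not tested.

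**Figure D1:**
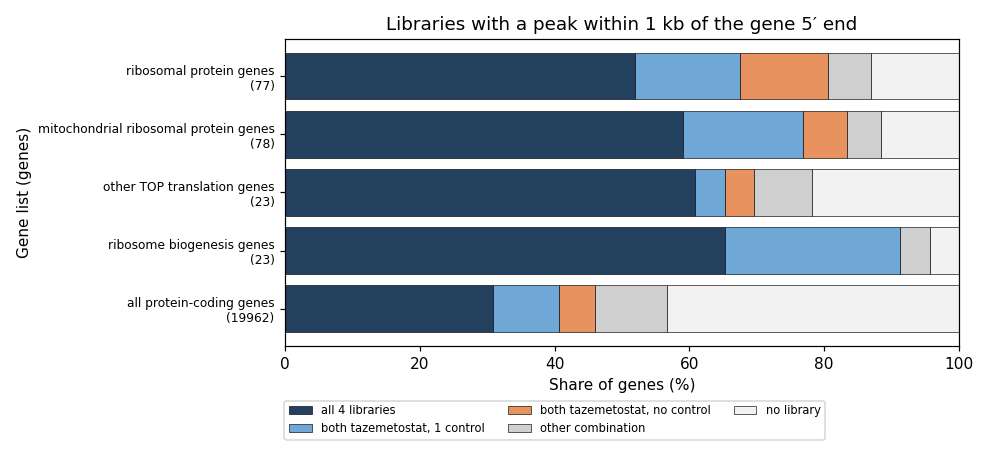
Share of genes (%) by the libraries that had a peak within 1 kb of the gene 5′ end, for ribosomal protein genes, 3 related lists and all protein-coding genes, with the number of genes in brackets. Peaks in all 4 libraries were present at 51.9% of the 77 ribosomal protein genes and 30.8% of all protein-coding genes.

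The 10 genes called only under tazemetostat were RPL8, RPL13, RPL17, RPL38, RPL39, RPS2, RPS4X, RPS15, RPS16 and RPS18. RPS2 sits at the entry of the mRNA channel, RPL39 lines the tunnel through which the nascent chain leaves, and RPS4X is one of the few members on the X chromosome. Their tag counts were low, from 10.1 to 29.7 with a median of 18.9 in tazemetostat 1 and from 5.65 to 21.5 with a median of 15.7 in tazemetostat 2. RPL39 had 29.7 and 16.2, RPS15 had 29.7 and 20.3, and RPS4X had 14.1 and 12.4. RPS18 was the lowest at 10.1 and 5.65, although its peak stood 21.6 and 15.2 times over the surrounding 10 kb. These counts overlap the range of 7.56 to 39.0 seen in control 1 at promoters that did have a peak there.

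Among the 12 genes with 1 control peak, RPL11, RPL35 and RPS23 had it in control 1, and RPL5, RPL13A, RPL14, RPL21, RPL30, RPL35A, RPS3 and RPS29 in control 2. RPL5 and RPL11 form a complex with the smallest ribosomal RNA that restrains MDM2 when ribosome assembly fails. RPL5 had 13.4 in control 2, 32.3 in tazemetostat 1 and 33.9 in tazemetostat 2. RPL11 had 12.2 in control 1, then 14.6 and 19.2 under tazemetostat, a smaller distance. RPL13A, which also takes part in interferon-induced translational silencing, had 15.5 in control 2, then 36.8 and 29.4. RPS3, at the mRNA entry site, had 12.6, then 20.7 and 18.1. RPL35A had the lowest control value of these, 6.72, and 25.7 and 21.1 under tazemetostat.

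The remaining combinations were single cases. RPL3, near the peptidyl transferase center, had a peak in control 2 (10.5) and tazemetostat 2 (15.1) only. RPL32 was called in both controls (7.56 and 6.72) and in tazemetostat 1 (15.1). RPL7A (19.1) and RPLP2, a stalk protein (38.8), had a peak in tazemetostat 1 alone, and RPS27 (9.24) in control 2 alone. RPLP2 shows that a fairly high count in one library did not go with a call in the other library of the group.

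The 10 genes without a peak were RPL4, RPL7, RPL12, RPL19, RPL22, RPL29, RPL36, RPL41, RPS9 and RPS21. For 3 of them the window lay in the wrong place: the annotated 5′ end was 2156 bases upstream of the MANE start for RPL7, 9794 for RPL22 and 19677 for RPL4, and all 3 had peaks in the 4 libraries around the MANE start. The 5′ end lay more than 1 kb from the MANE start in 7 genes, which also include RPL6, RPL10, RPL36 and RPS29. The values given here for RPL6 and RPL10 therefore belong to windows 9233 and 8422 bases upstream of that start. With windows set on the MANE start, 43 of 77 ribosomal protein genes had a peak in all 4 libraries (all genes 32.5%), RPS29 gained one in control 1 and RPL10 lost the one in control 1. The nearest peak to the MANE start of RPL41, which encodes the smallest ribosomal protein, lay 1097 to 1272 bases away in the 4 libraries. For RPS9 it lay 10570 to 10752 bases away and for RPL12 5840 to 27756. RPL19, RPL29, RPL36 and RPS21 likewise had no peak within 3 kb of that start in any library.

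At the 40 promoters with a peak in all 4 libraries the level was ordinary. The median tag count was 17.8 in control 1, 22.9 in control 2, 37.8 in tazemetostat 1 and 33.4 in tazemetostat 2, against 19.8, 24.8, 41.8 and 35.4 over all 5193 promoters with peaks in all 4. These 5193 are distinct sets of peaks that stand for 6157 genes, since neighbors can share peaks. By mean tag count the ribosomal protein promoters had a median percentile of 40.2 among them, 16 of 40 lay above the middle, and the highest percentile was 89.2. The highest was RPS27A, which encodes a ribosomal protein fused to ubiquitin, with 30.2 and 40.3 in controls 1 and 2 and 69.5 and 73.0 in tazemetostat 1 and 2. High values were also found at RPL23A (31.4, 42.9, 55.9 and 48.2) and RPL27 (39.0, 28.6, 60.0 and 50.4). The lowest were RPS28 (13.4, 11.3, 14.1 and 15.4) and RPS10 (9.89, 17.6, 12.6 and 15.8), and RPL6 was also low (12.2, 7.56, 24.2 and 18.1). The window of RPS27A shares its peaks with CLHC1, and that of RPL6 with PTPN11. Between the highest and the lowest member the mean over 4 libraries ran from 53.3 to 13.6. The largest step between neighbors in this order was 5.1, and the SD within groups had a median of 5.49 over the 40 promoters, so most neighbors cannot be ranked.

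**Figure D2:**
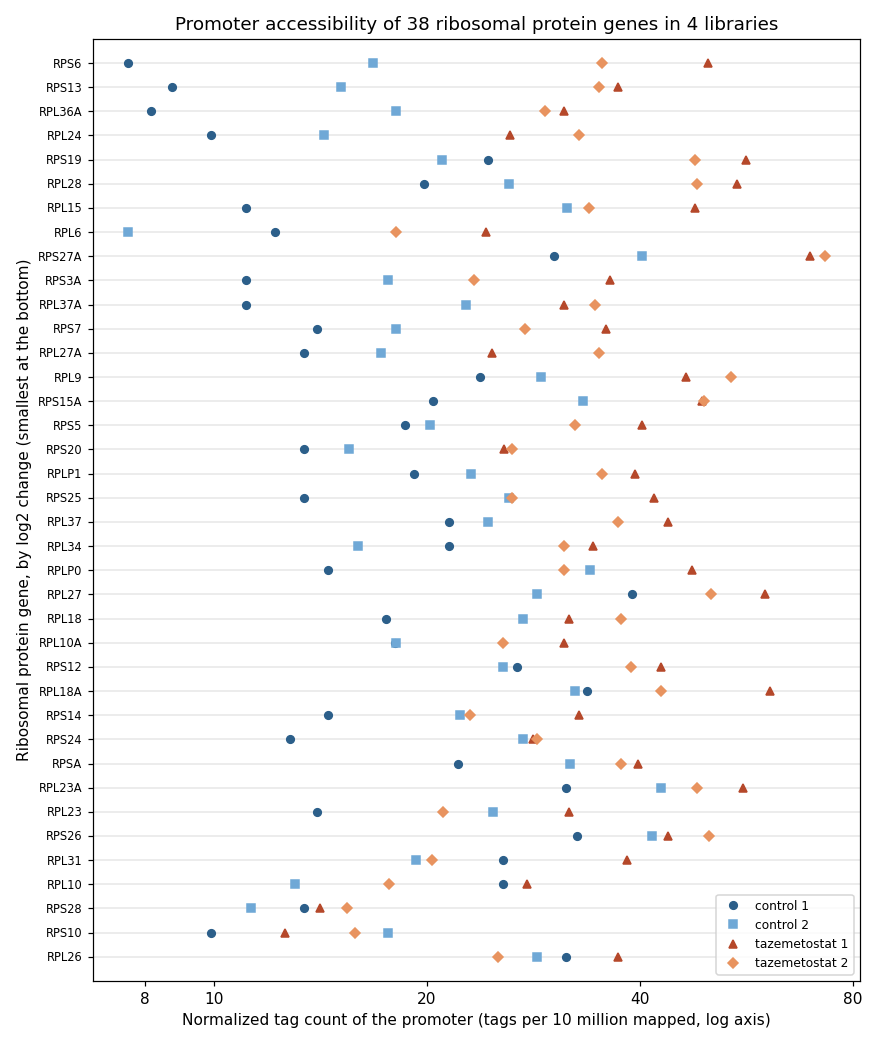
Normalized tag count (tags per 10 M mapped, log axis) of 38 of the 40 ribosomal protein promoters with a peak in all 4 libraries, 1 row per gene ordered by log2 change, with 1 symbol per library. Both tazemetostat libraries lay above both controls in 32 of the 38 rows, and control 1 was the lowest of the 4 in most of the upper rows.

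The comparison of the groups asks whether these promoters stayed level when EZH2 was inhibited. The methyl mark of polycomb was not measured in these libraries. Per mapped tag, the ribosomal protein promoters were higher under tazemetostat to the degree that other promoters were, and none was called once the 4 libraries were brought to the same median. The 2 tazemetostat values lay above both control values at 34 of 40 promoters (85.0%), where 85.2% of all 5193 promoters did the same. In limma on log2(normalized tag count + 1) with Benjamini-Hochberg adjustment, 14 of 40 (35.0%) passed an adjusted p of 0.05 as higher, against 31.0% of all promoters tested. None was lower (0.0% of all), also at an unadjusted p under 0.05. The median log2 change was 0.79, with quartiles of 0.58 and 1.01, against 0.75, with quartiles of 0.55 and 0.98, over all promoters. Centering each library on its median, which moved the median of all promoters from 0.75 to -0.02, moved that of the ribosomal protein promoters to 0.02. After centering, limma called 0 of 40 and 0 of 5193 in either direction, and at an unadjusted p under 0.05 it had 2 of 40 higher and 1 lower, against 196 higher and 164 lower of 5193. With 1 library left out, 1 group holds a lone library and the spread comes from the other group, so no calls are given. The median log2 change was 0.66 without control 1, 0.92 without control 2, 0.70 without tazemetostat 1 and 0.87 without tazemetostat 2. Over all promoters it was 0.60, 0.86, 0.63 and 0.87. These fits held 48, 44, 40 and 41 ribosomal protein promoters, since a peak was required only in the libraries kept.

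**Figure D3:**
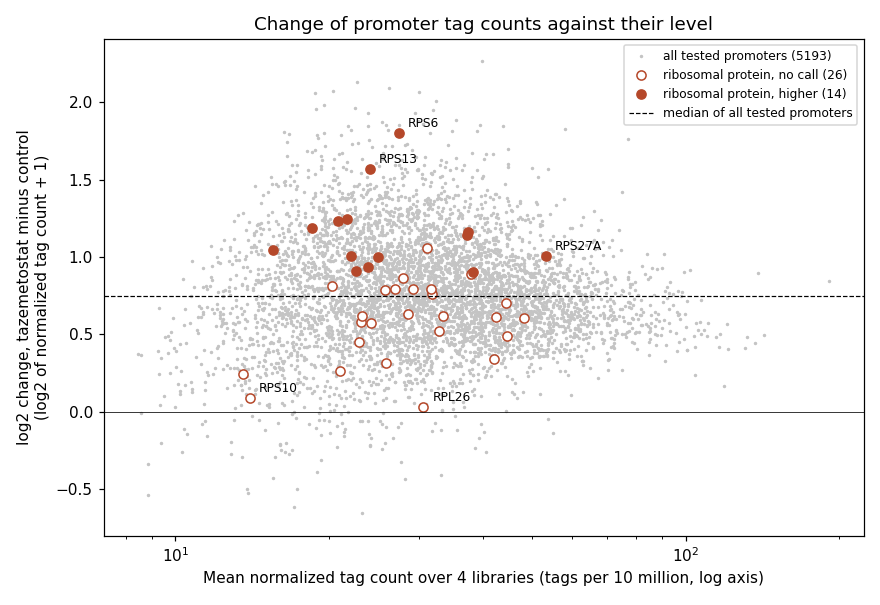
Log2 change (tazemetostat minus control, log2 of normalized tag count + 1) against the mean normalized tag count over 4 libraries (log axis) for 5193 promoters in grey and 40 ribosomal protein promoters in red, filled where limma called them higher. The dashed line is the median of all promoters, 0.75, and the ribosomal protein promoters lie on both sides of it, 23 above and 17 below.

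RPS6, the substrate of the S6 kinases downstream of mTOR, had the largest change. Its tag counts were 7.56 and 16.8 in controls 1 and 2, then 49.9 and 35.4 in tazemetostat 1 and 2, without overlap of the groups. The log2 change was 1.80 ± 0.37 (SE, n = 2 per group, limma adjusted p = 0.00999), the percentile among all promoters was 99.4, and after centering the change was 1.03. RPS13, of the small subunit, had 8.73 and 15.1, then 37.3 and 35.0, a log2 change of 1.57 ± 0.35 (SE, limma adjusted p = 0.0120) and of 0.80 after centering. RPL36A had 8.14 and 18.1, then 31.2 and 29.4, with a log2 change of 1.24 ± 0.37 (SE, limma adjusted p = 0.0267), and its window shares the peaks with BTK. RPL24 had 9.89 and 14.3, then 26.2 and 32.8, with a log2 change of 1.23 ± 0.34 (SE, limma adjusted p = 0.0226). All 4 had a control 1 value under 10, at most 17 tags in the peak. Without control 1 the log2 change was 1.27 at RPS6, 1.21 at RPS13, 0.71 at RPL36A and 0.99 at RPL24. Without tazemetostat 1 it was 1.56, 1.52, 1.20 and 1.39 in the same order, and without tazemetostat 2 it was 2.04, 1.61, 1.29 and 1.08. The called members also included RPL6, RPL9, RPL27A, RPL28, RPL37A, RPS3A, RPS7, RPS19 and RPS27A, with log2 changes from 0.90 to 1.16. The log2 change of RPL6 was 1.36 without control 1 and 0.73 without control 2.

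At the other end, RPL26 changed least. It had 31.4 and 28.6 in the controls and 37.3 and 25.2 under tazemetostat, and its log2 change was 0.03 ± 0.34 (SE, n = 2 per group). RPS10 had a log2 change of 0.09 ± 0.35 (SE), and RPS28 of 0.24 ± 0.33 (SE). RPL10, which joins the large subunit late in its assembly, had 25.6 and 13.0, then 27.7 and 17.7. Values of the 2 groups overlapped at RPL10, RPL23, RPL26, RPL31, RPLP0 and RPS10. After centering, RPL26 stood at -0.74, RPS10 at -0.68, RPS28 at -0.53 and RPL10 at -0.51, and limma called none of them.

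Members known from disease or from other roles were spread over the same range. RPS19, the gene most often mutated in Diamond-Blackfan anemia, had 24.4 and 21.0 in the controls and 56.4 and 47.8 under tazemetostat, with a log2 change of 1.16 ± 0.33 (SE, limma adjusted p = 0.0239). RPS14, whose loss underlies the anemia of the chromosome-deletion form of myelodysplastic syndrome, had 14.5 and 22.3, then 32.8 and 23.0, and was not called (0.58 ± 0.35, SE). RPSA, also known as the laminin receptor, had 22.1 and 31.9, then 39.8 and 37.6, and was not called (0.53 ± 0.34, SE). Of the stalk proteins that recruit translation factors, RPLP0 had 14.5 and 34.0, then 47.4 and 31.2, and RPLP1 had 19.2 and 23.1, then 39.3 and 35.4. Their log2 changes, 0.76 ± 0.39 and 0.80 ± 0.33 (SE), did not pass the test. These values moved with the control that was left out. Without control 1 the log2 change was 0.17 at RPLP0, 0.67 at RPLP1, 0.29 at RPS14 and 0.27 at RPSA. Without control 2 it was 1.35, 0.92, 0.88 and 0.78. The log2 change of RPS19 was 1.05 without tazemetostat 1 and 1.28 without tazemetostat 2.

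The calls fell on both subunits. Of the tested promoters, 7 of 19 of the small subunit (36.8%) and 7 of 21 of the large subunit (33.3%) were called higher, near the 31.0% of all promoters. Their median log2 changes were 0.81 and 0.79, against 0.75 over all promoters. Peaks in all 4 libraries were found at 19 of 31 small-subunit genes (61.3%) and 21 of 46 large-subunit genes (45.7%), against 30.8% of all genes. These counts depend on where the windows lie. With windows on the MANE start, RPL4, RPL7 and RPL22 of the large subunit and RPS29 of the small subunit joined the genes with peaks in all 4 libraries, and RPL10 left them. Many ribosomal protein genes carry small nucleolar RNAs in their introns, which guide the modification of ribosomal RNA. Peaks in all 4 libraries were present at 12 of 28 such host genes (42.9%) and 28 of 49 other members (57.1%), and their median log2 changes were 0.62 and 0.83. Peaks were shared with another coding gene at 11 of the 40 promoters, among them RPL6 with PTPN11, RPL9 with LIAS, RPL18 with SPHK2, RPS12 with SLC18B1 and RPS25 with TRAPPC4. Tags there cannot be assigned to 1 of the genes. The median log2 change was 0.79 both at these 11 and at the other 29.

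Median peak widths were larger in both tazemetostat libraries than in both controls. The median summed width at the 40 promoters was 462 bp in control 1, 570.5 bp in control 2, 711.5 bp in tazemetostat 1 and 668 bp in tazemetostat 2. Over all promoters it was 501, 633, 748 and 729 bp. The median difference between the group means was 99.5 bp against 139 bp over all promoters. Mean widths were larger under tazemetostat at 35 of 40 promoters and at 4556 of all 5193. Both tazemetostat widths exceeded both control widths at 20 of 40 (50.0%), and at 50.5% of all promoters. The widest members were RPL9 (734, 979, 758 and 1144 bp), RPS27A (822, 801, 834 and 1014 bp) and RPS26 (849, 734, 779 and 953 bp), and the narrowest were RPS28 (393, 300, 380 and 377 bp), RPL10A (300, 300, 492 and 459 bp) and RPS10 (300, 570, 375 and 459 bp). A width of 300 bp is the size of a single peak before stitching. The largest gains were at RPL6 (446 bp), RPL28 (416 bp) and RPS6 (346.5 bp), while the difference at RPL31 was -110.5 bp.

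**Figure D4:**
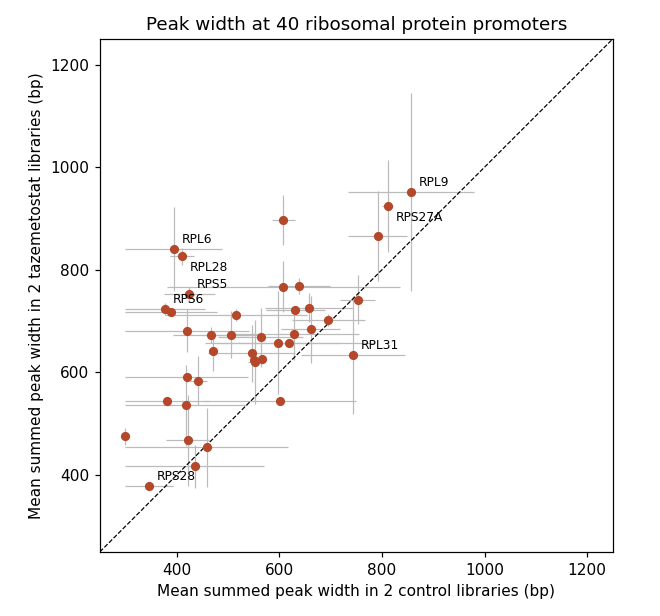
Mean summed peak width (bp) in the 2 tazemetostat libraries against the 2 control libraries at 40 ribosomal protein promoters, with bars from the lower to the higher library of each group and a dashed line of equal width. The points lie above the line at 35 promoters, and the bars of many points cross it.

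Tag density within the peaks was examined next. Per kilobase of peak, the median tag count was 33.8 and 37.3 in the controls and 57.2 and 48.6 under tazemetostat, against 36.4, 37.1, 54.6 and 46.7 over all promoters. On this scale the median log2 change was 0.51 for the ribosomal protein promoters and 0.42 for all, and limma called 20 of 40 (50.0%) and 34.2% of all promoters higher. RPLP0, RPLP1, RPSA and RPL27 were among those called only per kilobase, and RPL6 and RPL36A among those called only on the summed count. The height over the surrounding 10 kb was modest. Median local fold was 5.82, 5.23, 5.24 and 5.07 in the 4 libraries, against 6.64, 5.64, 6.02 and 5.51 over all promoters, where 4 was the lowest fold the caller kept. A fold of at least 8 was reached in 44 of 224 peaks, counted per gene and library, and at that fold 2 of the 40 promoters, and 321 of all 5193, still had a peak in all 4 libraries.

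The peaks lay mostly upstream of the start. Around the MANE start, at the 43 genes with peaks in all 4 libraries, the start itself was covered in 35, 38, 42 and 41 genes (81.4, 88.4, 97.7 and 95.3%), close to the 81.3, 87.4, 93.6 and 92.1% of all 6490 such genes. The center of the highest peak had a median position of -118, -111, -114 and -141 bp, against -84.5, -85.0, -84.8 and -89.0 bp over all genes. The coverage fell off faster inside the gene: at 500 bp downstream 1, 0, 0 and 0 of 43 genes were covered, against 9.14, 13.2, 17.0 and 16.8% of all genes. At 500 bp upstream it was 18.6, 37.2, 37.2 and 44.2%, against 19.5, 27.4, 35.1 and 34.0%. The short reach into the gene was seen in controls and tazemetostat libraries alike. No test was made of this difference.

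**Figure D5:**
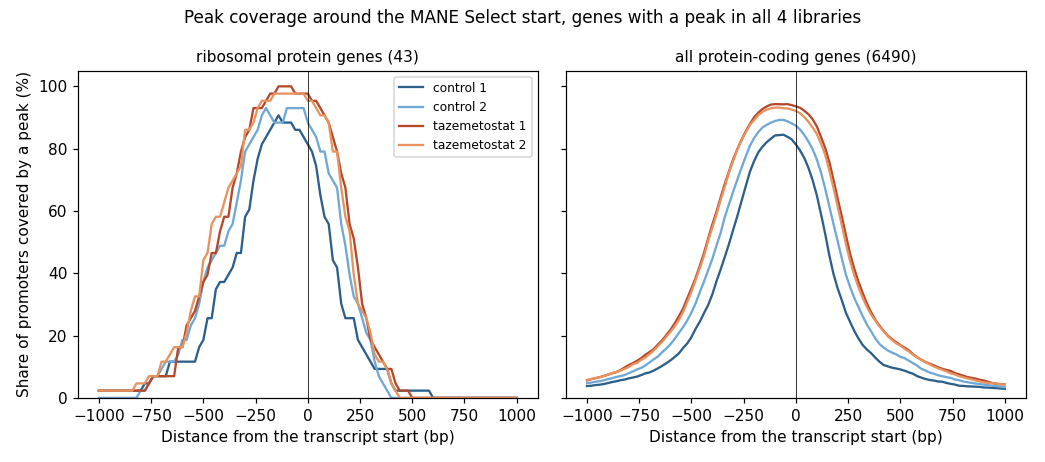
Share of promoters covered by a peak (%) against distance from the MANE Select start (bp, negative upstream) in each library, for 43 ribosomal protein genes (left) and 6490 protein-coding genes (right) with a peak in all 4 libraries. At 500 bp downstream 0 of the 43 were covered in 3 libraries and 1 in control 1, while 9.14 to 17.0% of all genes were.

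Related genes gave a frame for these values. Of 78 mitochondrial ribosomal protein genes, whose products translate the mitochondrial genome, 46 (59.0%) had peaks in all 4 libraries. Of these, 14 of 46 were called higher and 0 lower, with a median log2 change of 0.77, from MRPS25 at -0.52 ± 0.34 (SE) to MRPL15 at 1.51 ± 0.34 (SE, limma adjusted p = 0.0120). Their starts did not share the pyrimidine run, since 5 of 69 (7.25%) had at least 8 pyrimidines, while CCGGAAG was found in 30 (43.5%) and AAGATGGC in 21 (30.4%). Of 23 other translation genes with TOP transcripts, 14 were tested and 6 called higher, with a median of 0.87, among them EIF4B at 1.14 ± 0.35 (SE) and EEF1G at 1.07 ± 0.37 (SE), while EIF3L stood at 0.09 ± 0.34 (SE). Of 23 ribosome biogenesis genes, 15 were tested and 6 called higher, with a median of 0.71, from PES1 at -0.12 ± 0.34 (SE) to LTV1 at 1.27 ± 0.33 (SE). Of 8 ribosomal protein paralogues, 6 were tested and 2 called higher, RPL3L at 0.91 ± 0.34 and RPL22L1 at 0.88 ± 0.33 (SE). The shares called higher in the 4 lists, in this order, were 14 of 46, 6 of 14, 6 of 15 and 2 of 6, against 31.0% of all promoters, and 0 of the 5193 promoters were called after centering. Ribosomal protein genes have left many processed pseudogenes, which are copied from mRNA and carry no promoter. Of 1585 loci annotated as pseudogenes of these genes, of any pseudogene type, 1486 (93.8%) had no peak in any library, and 18 (1.14%) had peaks in all 4.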

How the data were processed

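The data were 4 ATAC-seq peak lists of HepG2 cells, 2 control and 2 tazemetostat, grouped by sample title. Nothing in the labels says that the libraries came from separate cultures, so p-values measure the spread between these libraries. Per the labels, methods and file headers, the authors used Trim Galore 0.6.6 for trimming, Bowtie2 2.3.5.1 with hg38 for alignment and HOMER 4.11.1 for peak calling in each library (300 bp peaks, then stitched, at least 4-fold over 10 kb). The header false discovery rate is 0.001 and the methods give another. Treatment of reads with several matching places is not given in the sources used here. The deposited normalized tag count, a signal per 10 M mapped tags, was summed over peaks overlapping 1 kb on either side of the GENCODE release 44 gene 5′ end by at least 1 bp. The deposited fold, a ratio to local background, served as a filter. The deposited p-value and score, whose meaning after stitching is unclear, and the clonal ratio were not used. The number of tags in a peak was computed from the normalized tag count and the mapped tags in the header. limma 3.58.1 in R 4.3.3 compared the groups on log2(value + 1) (low values change less on this scale than on the linear one) over all promoters with a peak in the 4 libraries, with Benjamini-Hochberg adjustment and no block. Requiring a peak in every library leaves out promoters that opened or closed. The overlap and test code was checked on simulated data. Named genes were all members lacking a peak in some library, the 4 largest and 4 smallest changes, the 4 highest and 4 lowest levels, the 3 widest and 3 narrowest, and a fixed set of well-known members. Values of some members are not reported here by name. The rule for members uses symbols only, but these genes, the lists and the tests were chosen with earlier results of these data known.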

Additional observations from a re-analysis of the deposited data

How the results depend on the processing

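The number of ribosomal protein promoters called higher, 14, was 9 of 28 tested with peaks covering the 5′ end only (32.1%, all promoters 31.9%). It was 1 of 2 tested at a local fold of at least 8 (all promoters 48.0%) and 0 after median centering. With 1 library left out, a lone library is assumed to vary like the other group, so no calls are given. Deviations of replicates 1 and 2 within the groups had a correlation of 0.0209 over 5193 promoters. With 2 pairs this cannot show whether replicate numbers pair the libraries. With replicate number as a block 7 were called, against 891 of all promoters in place of 1611. The median log2 change, 0.79, was 0.51 per kilobase, 0.025 after centering and 0.66 to 0.92 with 1 library left out. Its distance from the median of all promoters, 0.04, was 0.091 per kilobase and 0.092 in merged regions with 1 peak each, turned to -0.090 at a local fold of 8, and ran from -0.0027 (without tazemetostat 2) to 0.071 with 1 library left out. The 40 promoters with a peak in all 4 libraries fell to 2 at a local fold of 8 and were 40 to 48 with 1 library left out. The width difference, 99.5 bp, was 1.25 bp at that fold and 80.5 to 174.5 bp with 1 library left out. Of single genes, centering turned the sign of RPL10 (-0.51), RPL10A (-0.15), RPL23A (-0.28), RPL26 (-0.74), RPL27 (-0.066), RPLP0 (-0.0076), RPS10 (-0.68), RPS14 (-0.19), RPS26 (-0.43), RPS28 (-0.53) and RPSA (-0.24). Per kilobase RPL10A (-0.016) and RPL6 (-0.0040) turned. With 1 library left out, the change ran from -0.30 to 0.47 at RPS10 (negative without control 1 or tazemetostat 2), from -0.20 to 0.73 at RPL10 and from -0.24 to 0.31 at RPL26 (both negative without control 2 or tazemetostat 1). The causes were not tested. The remaining settings (500 bp windows, equal numbers of peaks, highest peak only, pseudocount 5, mean tag count of at least 20, and, added after seeing the data, MANE starts) kept the counts within 1.5 times. With the highest peak only, RPL6 was no longer called (0.61, limma adjusted p = 0.177), and with pseudocount 5 the distance from the median of all promoters was 0.019. The planned count tests (edgeR, DESeq2) were computed once on tags derived from the normalized tag count and are not reported, because the deposited column is a normalized signal and not a table of counts. Median tags per member peak were 25, 44, 63 and 69 in the 4 libraries, which limits what a single promoter can show.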
